A study of Mus musculus with 4 samples.

Results

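A set of 10 genes of metal binding and redox defence, Mt1, Mt2, Txnip, Txn1, Gpx3, Gpx4, Prdx4, Sod1, Sod2 and Cat, was followed through the islet single-cell RNA-Seq of Myt3 mutant and control mice. The genes were chosen by symbol, with earlier results of these data known, and each matched 1 of the 32227 gene rows in the count matrices. Mutant mice carried on both alleles a short CRISPR-Cas9 insertion in Myt3 (Myt3IM/IM) that ends an upstream open reading frame before the main one, and controls were homozygous for the WT allele. The labels describe adult mice on a normal diet and the PIPseq3 platform, whereas the study's methods give islets pooled from males and females after a high-fat diet (HFD) and inDrop-Seq. The line descends from CRISPR-edited founders that were backcrossed, and it carries the insertion in all tissues rather than in β cells alone. The labels name 4 libraries, 2 per genotype, of which 3 are analysed here, called mutant 1, mutant 2 and control 2. Control 1 was not analysed here, so mutant and control values are compared without a test.

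Metallothioneins are small, cysteine-rich proteins that bind zinc and copper, and their genes are switched on by metal-loaded MTF1, which binds metal-response elements (MREs). Txnip binds and inhibits thioredoxin (Txn1), the small protein that reduces oxidised partners, and Txnip transcription follows glucose through carbohydrate-response elements (ChoREs). Superoxide is turned into hydrogen peroxide by Sod1 in the cytosol and Sod2 in mitochondria. Peroxides are then removed by catalase (Cat), by the secreted glutathione peroxidase Gpx3, by Gpx4, which acts on lipid peroxides in membranes, and by Prdx4, the peroxiredoxin of the endoplasmic reticulum. Rodent β cells are known for low catalase and low glutathione peroxidase activity, and they hold much zinc in their insulin granules.

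Mt2 and Mt1 lie side by side on the plus strand of chromosome 8 in the GENCODE annotation of GRCm38, at chr8:94172664-94173568 and chr8:94179082-94180327, with 5513 bases between them. Windows of 300 bases around RefSeq start sites (GRCm38.p6; 250 bases before and 50 after) were searched on both strands for the MRE core, written TGCACNC or TGCGCNC. The Mt2 window held 4 matches and the Mt1 window 3, whereas 0.517% of the 32851 windows held at least 4 and 1.97% at least 3. Txnip and Prdx4 had 1 match each, and 25.7% of all windows held at least 1. Stretches of 25 bases with these matches are shown because Mt1 and Mt2 were the members that stood highest in the mutant β cells, with the MRE core, or its reverse complement, in capitals:
Mt1, chr8:94179057-94179081, plus strand: gtcccgctgTGCACACtggcgctcc
Mt1, chr8:94179091-94179115, plus strand: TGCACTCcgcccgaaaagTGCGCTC
Mt2, chr8:94172386-94172410, plus strand: catcgcctcTGCACCCggcccctcg
Mt2, chr8:94172481-94172505, plus strand: cagacccttTGCGCTCagctccttt
Mt2, chr8:94172559-94172583, plus strand: ggggagggcGTGTGCAggctctgtc
Mt2, chr8:94172613-94172637, plus strand: attcgggtcGTGCGCAggcccaggg

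Txnip is on the plus strand at chr3:96557957-96561883. Its window held the only match among the members to a ChoRE-like pair, CACGNG repeated after a gap of 5 bases, which 0.0487% of all windows hold. It is shown because Txnip is the glucose-regulated member of the set, with the pair in capitals:
Txnip, chr3:96557868-96557892, plus strand: tgtgCACGAGGGCTGCACGAGcctc

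The antioxidant-response core, written TGACNNNGC, was found once in the Mt2 window and once in the Sod1 window, and in 12.4% of all windows. These matches describe letters in the window and say nothing of binding. The plot of motif positions places them against the start sites.

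The other members are Txn1 (chr4:57943373-57956411, minus strand), Gpx3 (chr11:54902453-54910377, plus), Gpx4 (chr10:80047166-80056439, plus), Prdx4 (chrX:155323918-155340754, minus), Sod1 (chr16:90220754-90226329, plus), Sod2 (chr17:13006846-13040063, plus) and Cat (chr2:103453849-103485160, minus), and all 10 are protein-coding. Antisense genes overlap Mt2 (Gm45774) and Txnip (Gm15441), and the protein-coding Scaf4 overlaps Sod1 on the other strand. Strand use in counting is not given in the sources used here, so reads in these overlaps may have been shared. In summed β cells Gm45774 had 14, 9 and 14 UMIs and Gm15441 8, 15 and 78 in mutant 1, mutant 2 and control 2. Scaf4 had 107, 112 and 297. Gpx4 has a pseudogene, Gpx4-ps2, so its counts carry some uncertainty.

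After filtering, 2940, 2040 and 2283 cells were kept in mutant 1, mutant 2 and control 2, with a median of 2427, 3851.5 and 14051 UMIs (unique molecular identifiers, which mark single captured transcripts). Control 2 was also the only library with its batch label, so depth, batch and genotype cannot be told apart, and the insertion cannot be read in UMI counts, which leaves the labels unchecked. No barcode was shared between libraries. β cells were taken as cells with at least 15% of UMIs from Ins1 and Ins2 and little other hormone, which gave 2231, 1528 and 2017 cells. Glucagon-rich α cells numbered 288, 221 and 33, Sst-rich δ cells 104, 84 and 24, and endothelial cells 36, 32 and 33. Cells rich in Ppy or Pyy (62, 39 and 21) showed few of the other pancreatic polypeptide cell markers, at most 0.0695% of UMIs, and are called by those hormones. In β cells all 12 β-cell markers were detected in each library, and the acinar and leukocyte lists each made up at most 0.0100% of UMIs. The duct list made up 0.0416%, 0.0367% and 0.0428% in mutant 1, mutant 2 and control 2. Without hormones, the α-cell list made up 0.0714%, 0.0814% and 0.214% of β-cell UMIs and the β-cell list 0.445%, 0.428% and 0.198%. The β class of control 2 thus differed in marker make-up from those of the mutant libraries, and the cause was not tested. Between 5.26% and 6.33% of cells met no class rule, and cells with mixed hormones were left there in place of a doublet caller.

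In β cells, the metallothionein genes Mt1 and Mt2 stood higher in both mutant libraries than in control 2, while Txnip, Txn1, Gpx3 and Sod1 stood lower. Levels here are CPM, the UMIs of the summed β cells scaled to a common library total, after TMM scaling, with exact 95% Poisson intervals that cover counting error only. Mt1 was at 385 (372 to 399) in mutant 1, 421 (407 to 435) in mutant 2 and 103 (99.6 to 107) in control 2. Mt2 was at 188 (179 to 198), 213 (204 to 223) and 39.2 (36.8 to 41.6). For both genes the mutant libraries lay close together and far above control 2. The log2 ratios to control 2 were 1.90 and 2.03 for Mt1 and 2.26 and 2.44 for Mt2, about 3.72- to 5.44-fold, and the gap between the mutant libraries was 0.13 and 0.18.

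Txnip, the thioredoxin inhibitor, went the other way, with 82.6 (76.4 to 89.2), 97.1 (90.6 to 104) and 298 (291 to 304) CPM, log2 ratios of -1.85 and -1.62. Its target Txn1 was at 9.02 (7.06 to 11.4), 8.0 (6.23 to 10.1) and 65.1 (62.1 to 68.3), with ratios of -2.84 and -3.01. Inhibitor and target were thus both lower in the mutant libraries, and the gap between the mutant libraries, 0.23 for Txnip and 0.17 for Txn1, was small beside those ratios. Such gaps, here and elsewhere, hold no spread between control libraries and do not cover the batch label and depth of control 2.

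Gpx3, the secreted peroxidase, had 101 (94.5 to 109), 102 (95.4 to 109) and 562 (553 to 571) CPM. Its log2 ratios were -2.47 and -2.46, and the mutant libraries differed by only 0.01. Gpx4 was at 36.0 (31.9 to 40.4), 47.0 (42.5 to 51.8) and 69.5 (66.3 to 72.7), with ratios of -0.95 and -0.56. The mutant libraries differed by 0.38 in Gpx4, a gap of the order of the difference itself.

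Sod1 was at 46.1 (41.5 to 51.1), 49.6 (45.0 to 54.6) and 218 (212 to 223), with ratios of -2.24 and -2.13. Sod2 was at 30.2 (26.5 to 34.3), 31.4 (27.8 to 35.4) and 51.8 (49.1 to 54.6), with ratios of -0.78 and -0.72. The cytosolic dismutase thus differed more from control 2 than the mitochondrial one. Prdx4 gave only 17 and 28 UMIs in the mutant libraries against 783 in control 2, or 2.13 (1.24 to 3.41), 3.25 (2.16 to 4.69) and 29.4 (27.4 to 31.5) CPM. Cat was close to the detection limit in every library, with 16, 9 and 65 UMIs, and its counting intervals overlapped between mutant 1 and control 2.

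**Figure D1:**
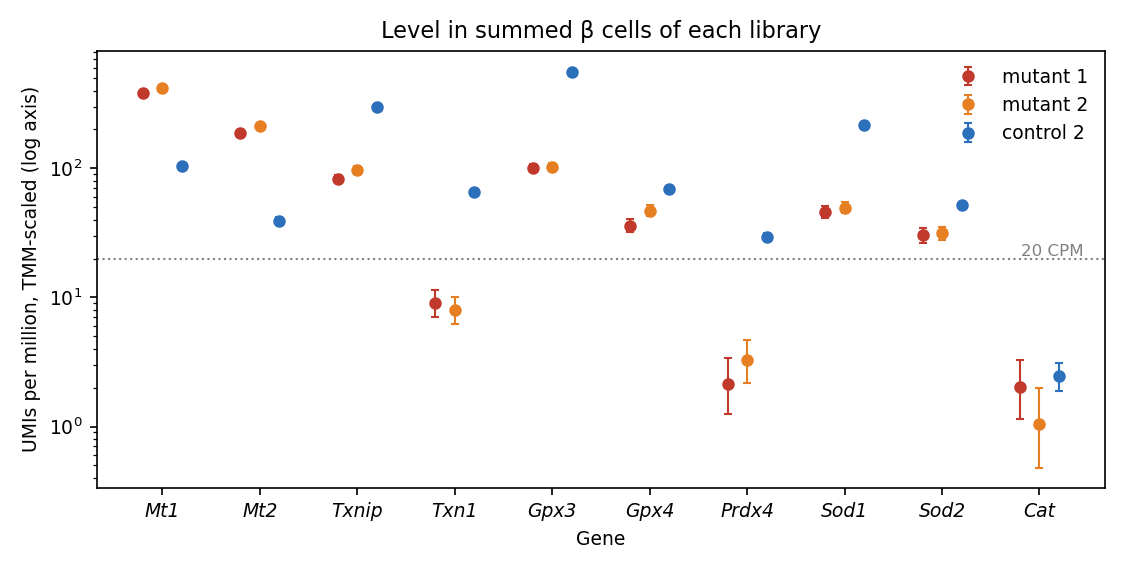
Level of each gene in the summed β cells of mutant 1, mutant 2 and control 2, in TMM-scaled CPM on a log axis; bars are exact 95% Poisson intervals and the dotted line marks 20 CPM. Mt1 and Mt2 lie above control 2 in both mutant libraries and every other gene lies below it, Cat with overlapping intervals.

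Counted over genes, these ratios need the background beside them. The 4749 genes averaging 20 CPM or more over the libraries were counted, and 32.5% of them were lower and 14.4% higher than in control 2 by over 0.5 on the log2 scale in both mutant libraries. Of the 10 members 8 passed that minimum, all but Prdx4 and Cat, and 6 were lower and 2 higher. With TMM most members therefore fell in the larger of 2 large groups of genes, and the sizes of the ratios are given beside the count. The members were chosen with earlier results of these data known, so their ranks are a description and not a test. Of the genes counted, 0.716% had a lower mean ratio than Txn1, 1.52% than Gpx3, 2.19% than Sod1 and 5.05% than Txnip, while 99.3% had a lower one than Mt1 and 99.6% than Mt2. Gpx4 and Sod2 were unremarkable by this measure, at 24.7% and 25.04%. Txn1 passed the minimum only through control 2, at 65.1 CPM against 9.02 and 8.0 in the mutant libraries. Its lower call and its rank thus rest on a filter met in the library where it is high.

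The scaling moved the whole distribution. Under TMM the median ratio over all genes counted stood at -0.20 in mutant 1 and -0.22 in mutant 2. It became 0.41 and 0.40 on CPM of all UMIs, a unit in which hormone transcripts, 50.3%, 51.9% and 61.4% of β-cell UMIs, count in full. Relative to the TMM median, the ratios were 2.10 and 2.25 for Mt1, 2.46 and 2.66 for Mt2, -1.65 and -1.40 for Txnip, -2.64 and -2.79 for Txn1, -2.27 and -2.24 for Gpx3, and -2.04 and -1.91 for Sod1. With CPM of all UMIs, Mt1 (2.48 and 2.62), Mt2 (2.85 and 3.04), Txnip (-1.26 and -1.02), Txn1 (-2.26 and -2.42), Gpx3 (-1.88 and -1.87) and Sod1 (-1.65 and -1.54) stayed past 0.5. Gpx4 (-0.36 and 0.03) and Sod2 (-0.19 and -0.12) did not, and Gpx4 changed sign in mutant 2, so no direction is given for them. On that scale 4 of the 8 members at 20 CPM were lower and 2 higher. Of all genes 12.1% were lower and 41.6% higher there, so the lower group was then the smaller one. In β cells of 3000 to 6000 UMIs, 811, 608 and 287 cells, the mean ratios of the 2 mutant libraries were 2.37 for Mt1, 3.14 for Mt2, -1.20 for Txnip, -1.58 for Gpx3 and -1.08 for Sod1 with TMM, where the median of all genes was 0.12 and 0.10. In this range the ratios were larger for the metallothioneins and nearer to 0 for the other 3 than in all β cells. The median of all genes moved upward as well, from -0.20 and -0.22. In control 2 the range holds the shallow 287 of 2017 β cells, whose median was 15971 UMIs. These shifts are therefore not read as an effect of depth.

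**Figure D2:**
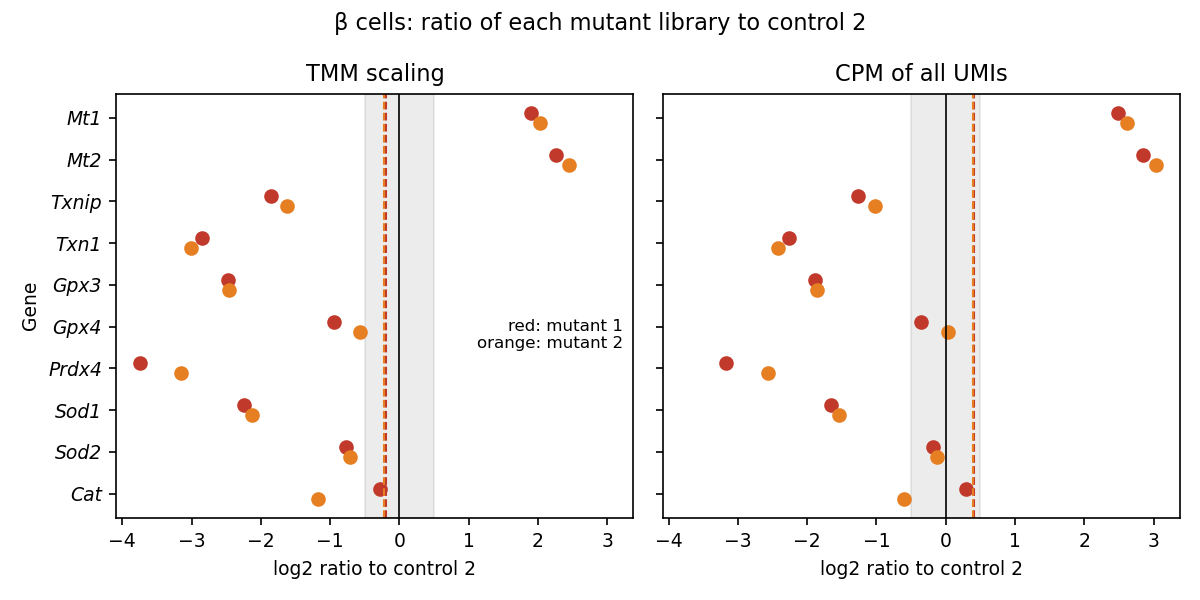
Log2 ratio of each mutant library to control 2 in β cells with TMM (left) and with CPM of all UMIs (right); dashed lines are the medians of all genes counted and the grey band spans -0.5 to 0.5. Mt1 and Mt2 lie to the right and Txnip, Txn1, Gpx3, Prdx4 and Sod1 to the left of the band in both panels, whereas Gpx4 and Sod2 enter it on the right.

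Across the islet, Gpx3 showed the largest difference between α and β cells among the members tested. Each class was compared with β cells over the 3 libraries with the library as a block (edgeR's quasi-likelihood test, Benjamini-Hochberg adjustment over 5082 genes), a test added after the data had been examined, in which 8 members could be tested. Hormones and markers defined the classes, and no member took part in that. Against β cells, 16.8% of all genes tested were higher and 18.3% lower in α cells, 10.6% and 11.5% in δ cells, 11% and 12% in Ppy/Pyy-rich cells, and 28.5% and 28.9% in endothelial cells. The libraries are pooled islets. The SEs and p-values rest on the scatter left over all these class sums after library and class, with information shared between genes. They do not measure how a single class difference varied between the 3 libraries, and they cover no other libraries.

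Gpx3 had 2587, 2971 and 2971 CPM of all UMIs in α cells of mutant 1, mutant 2 and control 2, against 116, 117 and 428 in β cells, so every α-cell value lay above every β-cell value. The α to β difference was 3.17 ± 0.32 on the log2 scale (SE; adjusted p = 4.38e-09, edgeR), about 8.98-fold. Ppy/Pyy-rich cells (1995, 1828 and 1171) and δ cells (1151, 1033 and 1465) were also above β cells, by 2.47 ± 0.32 (adjusted p = 7.91e-07, edgeR) and 1.56 ± 0.32 (adjusted p = 4.20e-04, edgeR). The α, Ppy/Pyy-rich and δ differences from β cells had the same direction in 3 of 3 libraries. Their size was not the same. Without hormone and mitochondrial genes in the total, α cells had 3561, 4139 and 4400 CPM against 239, 249 and 1139 in β cells. The α to β difference was thus smaller in control 2, and the tested value is 1 estimate over the 3 libraries. Endothelial cells were below in the test, by 2.32 ± 0.48 (adjusted p = 1.29e-04, edgeR), with 93.9, 151 and 54.5 CPM of all UMIs on 6, 13 and 14 UMIs. On that scale the endothelial value of mutant 2 lay above its β-cell value of 117, and the direction was the same in 3 of 3 libraries only without hormone and mitochondrial genes in the total, at 101, 162 and 57.8 against 239, 249 and 1139. The Gcg share of β cells differed between the libraries as well, and whether it was free RNA was not tested. Gcg made up 0.266% and 0.307% of β-cell UMIs in mutant 1 and mutant 2 and 0.0154% in control 2. If α-cell RNA were carried at that rate, it would bring 30.7% and 37.9% of the Gpx3 UMIs counted in mutant β cells and 0.505% in control 2. The part of such RNA in the β-cell values was not tested further.

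Mt1 and Mt2 were lower in α, δ and endothelial cells than in β cells. The differences were -1.61 ± 0.31 (adjusted p = 1.13e-04, edgeR) and -1.87 ± 0.27 (1.91e-06) in α cells, and -1.88 ± 0.34 (1.01e-04) and -2.12 ± 0.33 (9.77e-06) in δ cells. In endothelial cells they were -2.52 ± 0.41 (4.22e-06) and -2.81 ± 0.42 (1.01e-06). Values by library show how much of this was carried by the mutant libraries. Mt1 was at 440, 484 and 78.7 CPM of all UMIs in β cells and at 153, 171 and 123 in α cells, so that α cells of control 2 stood above its β cells on that scale. Without hormone and mitochondrial genes in the total, control 2 had 210 in β cells and 182 in α cells, close to each other, against 906 and 211 in mutant 1. In Ppy/Pyy-rich cells the calls for Mt1 (-1.03 ± 0.33, adjusted p = 0.0236, edgeR) and Mt2 (-0.85 ± 0.30, adjusted p = 0.0355, edgeR) were lost without mutant 1 (adjusted p = 0.439 and 0.325), without mutant 2 (0.474 and 0.769) and with DESeq2 (0.240 and 0.315). In control 2 both genes went the other way there, with Mt1 at 190 against 78.7 CPM of all UMIs and Mt2 at 75.9 against 29.8. Leukocytes, only 15, 14 and 11 cells, held Mt1 at 687, 343 and 871 CPM from 10, 9 and 41 UMIs, and were not tested.

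Sod1 was higher than in β cells in endothelial cells (1.35 ± 0.24, adjusted p = 1.73e-05, edgeR), with 344, 441 and 514 CPM against 52.7, 57.1 and 166. Without hormone and mitochondrial genes in the total, the values were 370, 474 and 545 against 109, 121 and 442, closest to each other in control 2. Sod1 was also higher in Ppy/Pyy-rich cells (0.87 ± 0.25, adjusted p = 0.00972, edgeR) and α cells (0.71 ± 0.22, adjusted p = 0.0100, edgeR). The α-cell call was lost without mutant 1 (adjusted p = 0.177), without mutant 2 (0.324) and without the filter on low counts (0.0876). The Ppy/Pyy-rich call was likewise lost without mutant 1 (0.161), mutant 2 (0.181) or the filter (0.177). In control 2, the α to β ratio of Sod1 changed sign when hormone genes were left out of the total, from 278 against 166 CPM to 411 against 442.

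Txn1 was higher in endothelial cells than in β cells by 1.58 ± 0.40 (adjusted p = 0.00127, edgeR), a call lost without mutant 2 (adjusted p = 0.108). Txnip differed there by 0.51 ± 0.22 (adjusted p = 0.0427, edgeR), with 297, 337 and 576 CPM, and that call did not last without mutant 1 (0.201), without mutant 2 (0.286), without the filter (0.922) or without hormone and mitochondrial genes (0.0867). Sod2 was lower in endothelial cells, by 1.25 ± 0.46 (adjusted p = 0.020, edgeR), on 1, 1 and 12 UMIs, and the call was lost without mutant 2 (0.0992). In control 2 Sod2 was at 46.7 CPM of all UMIs in endothelial cells, above the 39.4 of its β cells. Gpx4 was lower in α cells by 0.92 ± 0.27 (adjusted p = 0.00777, edgeR), on 16, 26 and 12 UMIs, and that too was lost without mutant 1 (0.0824) or mutant 2 (0.0909). In control 2 Gpx4 was at 54.6 CPM of all UMIs in α cells and 52.9 in β cells. Of the 8 members tested, 2 were higher and 3 lower in α cells, 1 and 2 in δ cells, 2 and 2 in Ppy/Pyy-rich cells, and 3 and 4 in endothelial cells. Of all genes tested, 16.8% were higher and 18.3% lower in α cells and 10.6% and 11.5% in δ cells. The shares were 11% and 12% in Ppy/Pyy-rich cells and 28.5% and 28.9% in endothelial cells. With so few members, the counts are not read as a result about them. Cat was not among the genes tested, and its 0 UMIs in α cells of every library allow up to 5.61, 4.41 and 13.7 CPM at 3 counts of the class total.

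**Figure D3:**
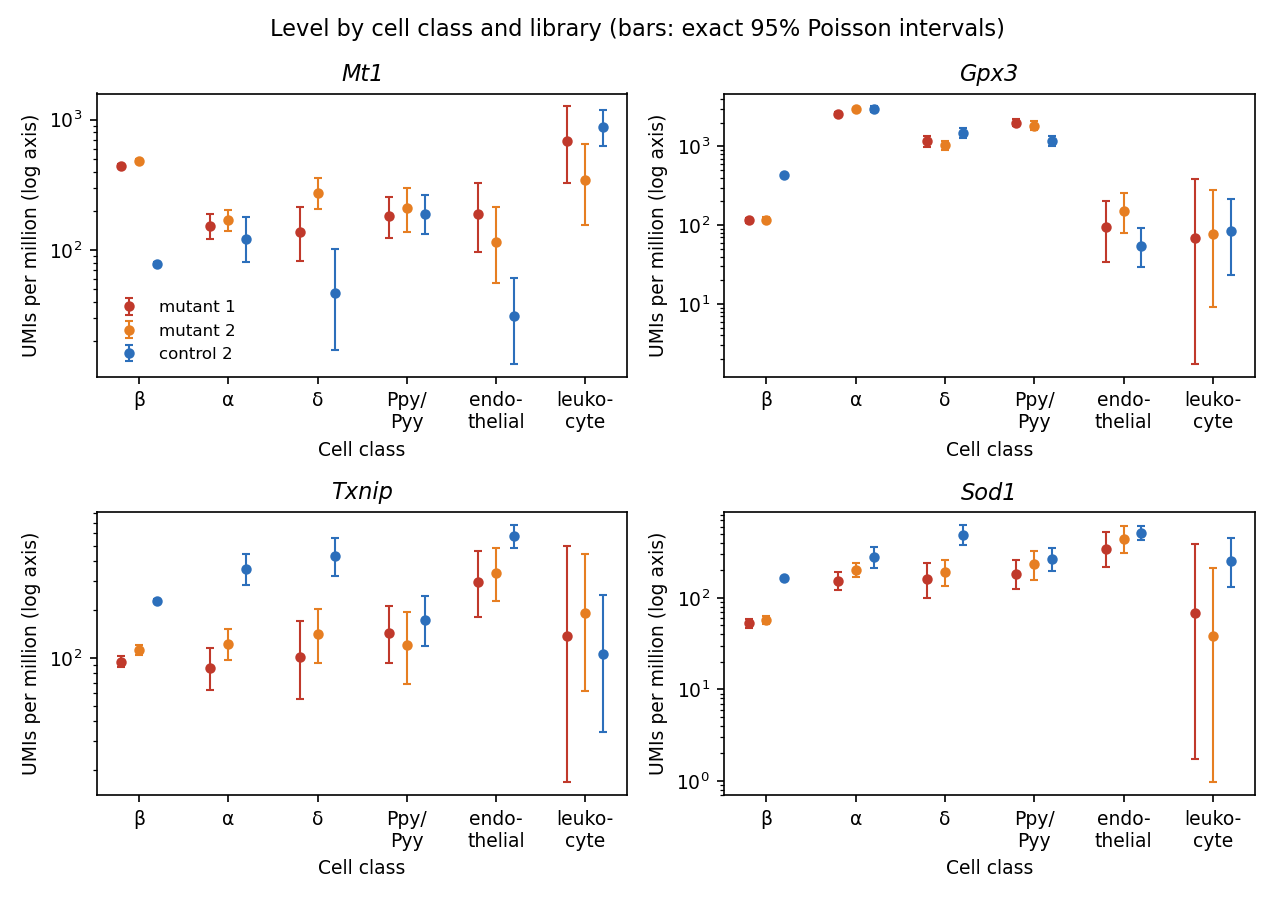
CPM of all UMIs for Mt1, Gpx3, Txnip and Sod1 in 6 cell classes and 3 libraries, on log axes, with exact 95% Poisson intervals. Gpx3 lies highest in α cells of all 3 libraries, and Mt1 in β cells differs more between the mutant libraries and control 2 than in α cells.

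The ratios between libraries were also read in the other classes, where counts are small and TMM was applied within each class. Txnip was below control 2 in α cells (log2 ratio -1.99, 95% counting interval -2.55 to -1.45, in mutant 1 and -1.51, -1.98 to -1.05, in mutant 2). In δ cells it was at -2.05 (-3.01 to -1.18) and -1.57 (-2.28 to -0.89), and in endothelial cells at -1.12 (-1.90 to -0.43) and -0.89 (-1.52 to -0.31). In Ppy/Pyy-rich cells it was at -0.69 (-1.50 to 0.11) and -1.005 (-1.97 to -0.10), and with CPM of all UMIs both intervals there included 0. Txnip was therefore below control 2 in α, δ and endothelial cells as in β cells, and not clearly so in Ppy/Pyy-rich cells. Mt2 was above control 2 in α cells, 1.86 (0.52 to 3.55) and 1.95 (0.65 to 3.63), although control 2 had only 5 UMIs. Mt1 in α cells was at 0.39 (-0.25 to 1.08) and 0.52 (-0.10 to 1.18), with intervals that include 0, and in δ cells at 1.59 (0.21 to 3.2) and 2.60 (1.39 to 4.11). In endothelial cells Mt1 was at 2.42 (1.01 to 3.92) and 1.79 (0.29 to 3.33), on 12, 10 and 8 UMIs. Ppy/Pyy-rich cells did not share this, with Mt1 at -0.46 (-1.20 to 0.27) and -0.33 (-1.10 to 0.43) and Mt2 at 0.72 (-0.25 to 1.75) and -0.11 (-1.32 to 1.09). Carry-over of β-cell RNA in proportion to insulin UMIs was estimated for mutant 1, mutant 2 and control 2. It would bring 25.7%, 23.6% and 8.62% of α-cell Mt2 UMIs and 23.7%, 40.3% and 16.4% of endothelial Mt1 UMIs. The part of such carry-over in these ratios was not tested, and it was not estimated for δ cells.

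Gpx3 was the member whose ratio in α cells lay farthest from its ratio in β cells. In α cells it was at -0.13 (-0.27 to 0.01) and 0.04 (-0.08 to 0.17), on 1383, 2020 and 653 UMIs, and in Ppy/Pyy-rich cells at 0.36 (0.11 to 0.61) and 0.18 (-0.09 to 0.45). In δ cells it was at -0.30 (-0.62 to 0.01) and -0.45 (-0.74 to -0.16), and in endothelial cells, on few UMIs, at 0.62 (-1.05 to 2.09) and 1.36 (0.15 to 2.55). In β cells the same ratios were -2.47 (-2.57 to -2.37) and -2.46 (-2.56 to -2.36). With a single control library, this difference between classes was not tested. Sod1 in α cells was at -0.79 (-1.28 to -0.28) and -0.42 (-0.86 to 0.04), also nearer to 0 than in β cells. In δ cells Sod1 was at -1.57 (-2.34 to -0.85) and -1.30 (-1.93 to -0.70).

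Within β cells, cells were drawn down to a fixed number of UMIs so that libraries of different depth could be set side by side. At 1000 UMIs, 340, 147 and 0 shallower β cells were left out. Mt1 was then found in 34.6% (32.5 to 36.8, exact binomial interval) of β cells in mutant 1, 36.8% (34.2 to 39.4) in mutant 2 and 7.88% (6.74 to 9.15) in control 2, and Mt2 in 20.4%, 20.9% and 2.93%. Txnip was found in 9.41% (8.13 to 10.8), 9.92% (8.39 to 11.6) and 21.1% (19.3 to 22.9), and Gpx3 in 11.4%, 13.2% and 28.1%. Sod1 was in 3.81%, 5.50% and 13.8% of cells. Shares thus followed the summed levels. Without thinning, Mt1 was found in 60.4% of β cells of mutant 1. Endothelial cells were taken as a rough measure of free RNA, although their own expression of these genes was not tested. At the same 1000 UMIs they showed a Gpx3 UMI in 15.4% (4.36 to 34.9), 9.68% (2.04 to 25.8) and 12.1% (3.40 to 28.2) of 26, 31 and 33 cells. The β-cell Gpx3 share of mutant 1 was below its endothelial share. Those of mutant 2 and control 2 lie within the wide endothelial intervals. At this number of cells, the β-cell Gpx3 shares alone were not told apart from the endothelial ones. The 1000 UMIs included hormones, 50.3%, 51.9% and 61.4% of UMIs in β cells and 5.99%, 6.06% and 4.46% in endothelial cells. Fewer other UMIs were thus drawn from each β cell, which lowers its share for every member. Shares of the 2 classes are therefore not on equal terms. Summed Gpx3 was at 116, 117 and 428 CPM of all UMIs in β cells and 93.9, 151 and 54.5 in endothelial cells. Only in control 2 did the counting interval of β cells lie above the endothelial one on that scale. Without hormone and mitochondrial genes in the total, Gpx3 was at 239, 249 and 1139 in β cells and 101, 162 and 57.8 in endothelial cells. The intervals then overlapped only in mutant 2. β-cell RNA carried in proportion to insulin UMIs would bring 12.5%, 7.52% and 50.9% of these endothelial Gpx3 UMIs in mutant 1, mutant 2 and control 2. For Mt1 the endothelial shares were 26.9% (11.6 to 47.8), 3.23% (0.0816 to 16.7) and 3.03% (0.0767 to 15.8), and for Mt2 they were 3.85% (0.0973 to 19.6), 9.68% (2.04 to 25.8) and 0% (0 to 10.6). Of these metallothionein shares, the Mt1 share of β cells lay above the endothelial interval in mutant 2 and the Mt2 share in mutant 1, and the others lay within it. Txnip was found in 19.2%, 19.4% and 42.4% of endothelial cells and Sod1 in 30.8%, 32.3% and 36.4%, above β cells in every library. Without hormone and mitochondrial genes in the total, endothelial Txnip was at 320, 362 and 611 against 194, 237 and 604 in β cells. For Sod1 these levels were 370, 474 and 545 against 109, 121 and 442. Neither gene was lower in endothelial cells, so that class sets no background for them. In control 2 the Txnip levels were close to each other. Median depths of endothelial cells were 1669.5, 1953.5 and 5931 UMIs, against 2752, 4468.5 and 15971 in β cells.

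The spread from cell to cell was measured as the variance of UMI counts over their mean, which is 1 for pure counting noise. Where cells differ beyond that noise, it also rises with the mean count. Values of libraries with unlike means therefore do not compare relative spread. At 1000 UMIs the mean counts were low, and the spread is therefore given at 4000 UMIs, a depth added after the data had been examined, which 594, 861 and 1755 β cells reached. The median gene had 1.06, 1.07 and 1.05, and 90% of genes lay below 1.21, 1.20 and 1.17. At this depth Mt1 stood above this in every library, at 1.69, 1.74 and 1.81, as did Mt2 at 1.48, 1.37 and 1.33. The mean counts per cell were 1.77, 1.92 and 0.357 for Mt1 and 0.800, 1.01 and 0.125 for Mt2. At 1000 UMIs Mt1 was at 1.08, 1.18 and 1.23 and Mt2 at 1.03, 1.18 and 1.096. There 90% of genes lay below 1.11, 1.12 and 1.109. Mt1 in mutant 1 and Mt2 in mutant 1 and control 2 did not pass that value. At 4000 UMIs Txnip was at 1.01 and 1.09 in the mutant libraries and at 1.34 in control 2. Sod1 (1.13, 1.04 and 1.16) stood above 75.6%, 37.7% and 89.6% of genes, and Sod2 (1.07, 0.94 and 1.02) above 55.1%, 0.655% and 28.5%, so neither passed the value of 90% of genes in any library.

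Gpx3 in control 2 had the widest spread among the members, 4.36, against 1.32 and 1.36 in the mutant libraries. Its mean count per cell was also higher there, 1.79 against 0.391 and 0.433. Both this measure and a fixed cut of 5 UMIs follow the mean. In control 2, 208 of the 1755 cells (11.9%) held at least 5 Gpx3 UMIs, 834 held 1 to 4 and 713 held 0. In mutant 1 no cell reached 5, and in mutant 2 only 2 of 861 did. Single cells of control 2 reached 41 and 40 UMIs, and without these 2 cells its spread was 3.50. The cells with at least 5 Gpx3 UMIs were not richer in glucagon, with a median Gcg share of 0.0116% against 0.0114% in cells with 0, and their insulin share was 53.0% against 57.0%. All these cells had been chosen by a high insulin share and under 3% Gcg, so both shares were limited beforehand. Other α-cell markers were not compared between these groups of cells.

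Mt1 and Mt2 varied together from cell to cell. At 4000 UMIs, β cells with 0 Mt1 UMIs held 41.8, 62.7 and 9.01 Mt2 UMIs per 100 cells in mutant 1, mutant 2 and control 2, and those with at least 3 Mt1 UMIs held 134, 153 and 73.2. The counting intervals of the end groups did not overlap in any library. Across cells, r between Mt1 and Mt2 was 0.354, 0.313 and 0.213 over 594, 861 and 1755 cells of 1 library each, and Mt2 had the highest value for Mt1 among 5285 genes ranked by the lowest of the 3 libraries. The next were Fos (lowest r 0.128), an immediate early gene, Frzb (0.0936), Iapp (0.0888), the β-cell peptide amylin, and Cnpy2 (0.0872). Iapp had its lowest value in control 2 and was at 0.258 and 0.241 in the mutant libraries. For Txnip they were Fos (0.0854), Nfkbia (0.0836), Gcnt2 (0.0611), Clk1 (0.0573) and Cers5 (0.0560). At 1000 UMIs r between Mt1 and Mt2 was 0.112, 0.128 and 0.107, but Mt2 was not ranked, since in control 2 it fell under the minimum mean of 0.05 UMIs per cell. The 5 ranked genes most like Mt1 were then Fos, Iapp, Scg5, Tmem167b and Gnai2 (lowest r 0.0348 to 0.0481) and those most like Txnip were Egr1, mt-Nd3, Dusp5, Junb and Maged1 (0.0298 to 0.0384). Apart from the Mt1 and Mt2 pair, and Iapp with Mt1 in the mutant libraries, these correlations are weak, and the lists changed with depth. Iapp was also among the genes most like Gpx3 in mutant 1, at 0.203. Only the Mt1 and Mt2 pair is read as varying together.

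**Figure D4:**
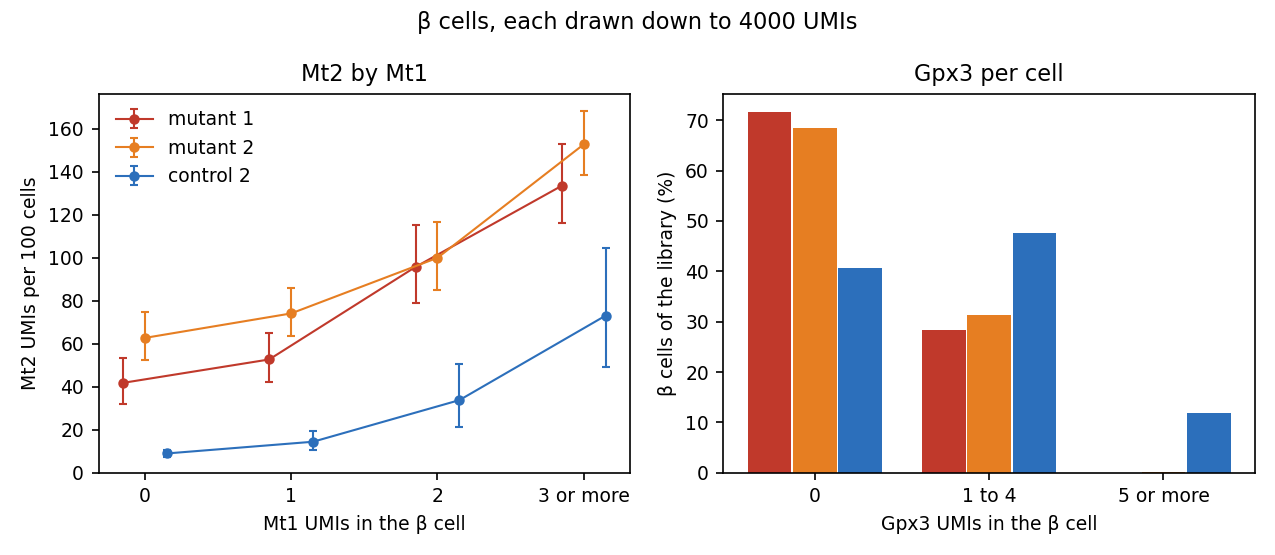
β cells drawn down to 4000 UMIs. Left, Mt2 UMIs per 100 cells (exact 95% Poisson intervals) by the number of Mt1 UMIs in the cell, which is higher at 3 or more than at 0 in each library; right, bars give the percent of β cells with 0, 1 to 4 and at least 5 Gpx3 UMIs, with 11.9% in the last group in control 2.

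The genes most like Gpx3 differed between libraries. In mutant 1 and mutant 2 the highest r was with Gcg (0.216 and 0.240). Next came Iapp (0.203) and Rgs20 (0.192) in mutant 1 and Dnajb1 (0.228) and Lars2 (0.226) in mutant 2. Pyy followed, at 0.188 and 0.214. In control 2 the highest values were with the granule genes Chgb (0.218), Scg3 (0.194) and Chga (0.182), and r with Gcg was 0.016. Of the other α-cell markers, Ttr was at 0.148 and Gc at 0.130 in control 2. Ttr and Gc were at 0.004 and -0.033 in mutant 1 and at 0.079 and -0.011 in mutant 2. Ins1 was at -0.234, -0.284 and -0.288, and since counts per cell are fixed, an abundant insulin transcript and any other gene share the total. This comparison was chosen after the values had been seen.

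β cells were further split into tertiles of their own library by insulin share, with levels given as CPM without hormone and mitochondrial genes. From the lowest to the highest insulin tertile, Gpx3 went from 376 to 158 in mutant 1, from 417 to 167 in mutant 2 and from 1215 to 1045 in control 2. Sod1 went the other way, from 69.9 to 150, from 68.9 to 161 and from 363 to 490. Gpx4 (54.5 to 99.0, 60.1 to 163 and 109 to 170) and Txn1 (11.9 to 28.3, 15.02 to 24.4 and 95.5 to 167) also had higher values in the highest tertile. Mt1 showed little order in the mutant libraries, with 857, 978 and 873 over the tertiles of mutant 1 and 993, 1181 and 910 in mutant 2, and was at 261 in the lowest and 186 in the highest tertile of control 2. Depth moved with these tertiles, from a median of 1432 to 3774 UMIs in mutant 1 and from 7729 to 23342 in control 2, and its part in the result was not tested.

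Around the members, 6 lists of related genes were read in β cells by the same count, 92 genes of which 91 were measured and 44 reached 20 CPM. Of these, 18 were lower and 4 higher than in control 2 by over 0.5 in both mutant libraries, against 32.5% and 14.4% of all genes. With CPM of all UMIs the split turned to 8 lower and 18 higher, but on that scale 12.1% of all genes were lower and 41.6% higher, so the turn was that of the whole table and the lists are described by single genes and not by direction. In the list of thioredoxins and peroxiredoxins, 5 of 9 genes were lower, with a median of -0.79 and -0.88 against -0.20 and -0.22 for all genes. The peroxiredoxins Prdx2 (-1.84 and -1.84), Prdx5 (-1.64 and -1.91), Prdx1 (-1.61 and -1.35) and Prdx6 (-1.06 and -1.14) led it, and Prdx1, Prdx2 and Prdx5 stayed past -0.5 in both libraries with CPM of all UMIs. Prdx2 (17.8, 17.9 and 64.0 CPM) and Prdx5 (13.4, 11.1 and 42.0) reached 20 CPM only through control 2. Txnrd1, the reductase that recycles thioredoxin, was higher, at 224, 170 and 90.7 CPM (log2 ratios 1.31 and 0.90), as was Txndc12 (0.72 and 0.64). The thioredoxin pair and its reductase thus did not share a direction.

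In the glutathione list 3 of 8 genes were lower, Gpx1 (-1.28 and -1.38), the main cytosolic glutathione peroxidase, Glrx3 (-1.34 and -1.18) and Gclm (-0.80 and -0.70), a subunit of the enzyme that starts glutathione synthesis. Gpx1 and Glrx3 stayed past -0.5 with CPM of all UMIs. In the list of NRF2 targets, iron and NADPH genes, Nqo1, a quinone reductase, was higher (147, 134 and 62.0 CPM; 1.24 and 1.11), whereas Taldo1 (-0.86 and -0.78) and Sqstm1 (-0.72 and -0.91) were lower with TMM and not past the limit with CPM of all UMIs (-0.28 and -0.19, and -0.13 and -0.31). Among 10 genes of zinc and copper handling 4 were lower, the zinc transporters Slc39a11 (-1.56 and -1.65), Slc30a7 (-1.52 and -1.61) and Slc30a5 (-0.69 and -0.63) and the copper chaperone Cox17 (-0.76 and -0.88), and 0 were higher. Slc39a11 and Slc30a7 stayed past -0.5 with CPM of all UMIs. With TMM no gene of that list passed the limit in the direction of Mt1 and Mt2, although Slc39a7 (0.73 and 0.47), Slc31a1 (0.49 and 0.32) and Mtf1 (0.26 and 0.32) had positive ratios, and with CPM of all UMIs these 3 genes passed it, where 41.6% of all genes did. The list also holds a further metallothionein, Mt3, which is known from the brain and was named here after its values were seen, as were those 3 genes. It gave 7, 9 and 672 UMIs in mutant 1, mutant 2 and control 2, or 0.88, 1.04 and 25.2 CPM, with ratios of -4.74 and -4.51, and was not counted because its mean level was under 20 CPM. The metallothionein genes thus did not share a direction. Of the superoxide and repair list, Sesn3, a sestrin, was higher (1.03 and 0.85) and Park7 (-0.999 and -1.08), Oxr1 (-0.84 and -0.68) and Romo1 (-0.63 and -0.57) were lower, but with CPM of all UMIs none of the 3 passed the limit, at -0.41 and -0.49, -0.25 and -0.08, and -0.04 and 0.02. Arrdc3, an arrestin-domain relative of Txnip, was the 1 gene of 4 in the last list past the limit, at 31.2, 31.3 and 67.6 CPM (-1.11 and -1.11).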

How the data were processed

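Per the study's methods, the authors counted reads with DropEst, and the deposited matrices hold raw UMI counts per gene and cell with no normalization. The submitters' processing notes list GRCm39 and Seurat, and the aligner is not given in the sources used here. Totals were 8448466, 9013499 and 36985253 UMIs in mutant 1, mutant 2 and control 2. Cells under 500 UMIs or 100 genes or over 10% mitochondrial UMIs were removed. Classes followed hormone shares and marker genes: Gcg at least 5% for α cells, Sst at least 1% for δ cells, Ppy and Pyy together at least 5%, and, for other cells, at least 3 markers and 0.3% of UMIs, limits set after seeing the data. No doublet caller was run. Class sums were scaled with edgeR 4.0.16 (TMM, R 4.3.3), with a prior count of 1, and genes at 20 CPM or more in the mean of the libraries were counted where both ratios passed 0.5. With 1 control library no genotype test was made. Classes were tested with edgeR's quasi-likelihood test, and SEs are the size of the log2 difference over the root of its F value. DESeq2 1.42.0 was an alternative. Scripts were tested on simulated data. Intervals are exact Poisson or binomial at 95%, those of ratios conditional binomial. Named genes were the members, list genes past 0.5 in both mutant libraries (up to 4 per list by the smaller ratio) and the 5 genes most like Mt1 and Txnip. Members and lists were chosen with earlier results of these data known. Sequences are RefSeq, GRCm38.p6, and gene positions GENCODE vM21, GRCm38, which is not the build of the processing notes.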

Additional observations from a re-analysis of the deposited data

How the results depend on the processing

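No paired analysis was possible because control 1 was not analysed here, so the groups shared a single replicate number. The members higher in both mutant libraries were Mt1 and Mt2 under each of the 15 alternatives. Txnip, Gpx3 and Sod1 stayed lower under each, and Txn1 wherever it reached the minimum of CPM. In β cells of 3000 to 6000 UMIs, 3 members were lower in place of 6, and the mean ratios of Gpx4 and Sod2 changed sign, to 0.13 and 0.0071. For all genes, 1545 lower and 684 higher became 573 and 1965 with CPM of all UMIs, 663 and 1866 with a mean over cells, 906 and 1287 in β cells of 3000 to 6000 UMIs, 4997 and 4172 with no CPM minimum, and 605 and 350 at 50 CPM. The higher count was 1640 with CPM without hormone and mitochondrial genes and 1063 in cells thinned to 1000 UMIs. The lower share of these calls moved from 69.3% with TMM to 22.6% with CPM of all UMIs. Without mutant replicate 1 or 2, 1666 to 1716 genes were lower and 737 to 877 higher, with 6 members lower and 2 higher in both.

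Members called against β cells ranged from 3 to 6 in α cells, 3 to 5 in δ cells, 1 to 4 in Ppy/Pyy-rich cells and 4 to 6 in endothelial cells when a library was left out, against 5, 3, 4 and 7 with all libraries, and 2 were called in Ppy/Pyy-rich cells with DESeq2. Between 7 and 9 members were tested when a library was left out, against 8 with all libraries. The shares of all genes called are given above for all libraries only, so these counts are not read as a result about the members. Without hormone and mitochondrial genes, the α to β ratios of control 2 changed sign for Mt1 (-0.20), Txnip (-0.18) and Sod1 (-0.10), and, from values whose counting intervals included 0, for Txn1 (0.01 to -0.83), Gpx4 (0.05 to -0.80) and Sod2 (0.47 to -0.38), as did that of Txnip in mutant 2 (0.13 to -0.48). Of 188 class differences under alternatives, 163 kept their side of the threshold, 20 lost it and 5 gained it. The cause of these changes was not tested. Depth limits Cat in every class, Prdx4 in the mutant libraries and the other members in the small classes.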
